A study of Macaca mulatta with 6 samples.

Results

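The chemokine genes CCL2, CCL5, CCL8, CCL20, CXCL8 and CXCL10 were examined in luteal cells of rhesus macaques cultured with or without T0901317. The 6 genes were read by 9 probe sets of the 52766 tested, out of 14132 named genes. Membership followed the gene symbol in the platform annotation. The group was assembled with the response to T0901317 already known, since CCL8 had the largest fall among named genes, so the T0901317 minus DMSO changes of the members are a description and carry no test. CCL8 was read by 3 probe sets, CCL5 by 2 and each of the other 4 genes by 1.

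The corpus luteum is the gland that forms from the ovulated follicle and secretes progesterone. It was taken on day 12 counted from the LH surge, and its dispersed cells went onto fibronectin without serum and were treated at once, for 24 h, with 0.1% DMSO (vehicle, 3 arrays) or 1 µM T0901317 (3 arrays). The labels do not say whether the T0901317 cultures also received DMSO; if they did not, the compound and the lack of vehicle cannot be told apart. T0901317 activates the liver X receptors, nuclear receptors whose natural ligands are oxidised forms of cholesterol. All 6 cultures shared the stage, plating and medium, and each treated culture has a vehicle culture of the same replicate number, in a design that the submitters describe as paired. The labels give no age, genotype or animal for the replicates, and a culture of dispersed gland holds every cell type that survived dispersal.

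Chemokines are small secreted proteins that draw leukocytes along a gradient by binding receptors coupled to G proteins. Their genes are switched on mainly by inflammatory signals through NF-kB and by interferons through STAT and IRF factors. In the primate corpus luteum, chemokines are known for bringing monocytes, neutrophils and lymphocytes into the gland, above all as it regresses. Liver X receptors are known in macrophages both for lipid handling and for restraining inflammatory transcription.

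Values are log2 levels, so a difference of 1 is a change of 2-fold. The array medians ran from 5.54 to 5.71. A reference for dim signal, the 95th percentile of the mean levels of the 42 Bacillus control probe sets, lay at 4.63, and all 9 chemokine probe sets had means above it. Of 8 listed markers of luteal steroid-producing cells 5 were measured, all with means above the dim reference. STAR, which moves cholesterol into mitochondria, had a mean of 11.0 with DMSO and 10.9 with T0901317, and FDX1, an electron carrier of steroid synthesis, 11.2 and 11.3. HSD3B2 was at 6.67 and 6.49, INHA at 7.97 and 7.75, and CYP19A1, the dimmest, at 5.20 and 5.23. HSD3B2 and INHA were lower with T0901317 in each pair. The mean of the 5 markers differed by -0.16, -0.07 and 0.02 in pairs 1, 2 and 3. CYP11A1, LHCGR and SCARB1 were not analysed here. Levels of different probe sets do not give the relative amounts of their transcripts, so changes are read within a probe set. Levels are set side by side across probe sets only to call them bright or dim. Marker averages are compared between arrays.

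CCL8 is a monocyte chemoattractant that binds several CC receptors. On its brightest probe set, MmugDNA.3158.1.S1_at, the vehicle arrays of replicates 1, 2 and 3 read 6.81, 10.1 and 10.2, and the T0901317 arrays 5.86, 9.04 and 7.78. Each treated array was below its own vehicle array, but the groups overlapped, because both arrays of replicate 1 lay below all others. The paired differences were -0.95, -1.10 and -2.39, with a mean of -1.48 ± 0.79 (SD, n = 3 pairs), or 2.79-fold lower.

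A second CCL8 probe set followed the same course. It read 6.61, 8.63 and 9.18 with DMSO and 5.76, 7.81 and 6.77 with T0901317. Its paired differences were -0.85, -0.82 and -2.41 (mean -1.36 ± 0.91, SD, n = 3 pairs). On both probe sets the third pair was the farthest below 0, while pairs 1 and 2 lay close together. Without replicate 3 the mean change was -1.02 on the first and -0.84 on the second, and without replicate 1 it was -1.75 and -1.62.

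The third CCL8 probe set, MmugDNA.16210.1.S1_at, did not share this course. It read 8.53, 8.15 and 7.57 with DMSO and 8.30, 8.11 and 7.76 with T0901317, so that replicate 1 was highest here and lowest on the other 2. Its paired differences were -0.22, -0.04 and 0.19 (mean -0.02 ± 0.21, SD, n = 3 pairs), and the mean was 0.07 without replicate 1. Over the 6 arrays, which share 3 replicates, its Pearson correlation with MmugDNA.3158.1.S1_at was -0.59, against 0.98 between that probe set and the second one. The annotation gives all 3 the same gene number, and which transcript each one binds was not analysed here.

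CXCL10 is induced by interferons and attracts activated T cells and NK cells. Its single probe set read 10.6, 11.2 and 10.7 with DMSO and 9.60, 11.2 and 9.81 with T0901317. The treated arrays of replicates 1 and 3 lay below every vehicle array, while both arrays of replicate 2 were level with each other at the top. The paired differences were -0.98, 0.01 and -0.92 (mean -0.63 ± 0.56, SD, n = 3 pairs; 1.55-fold lower). Without replicate 2 the mean was -0.95, and without replicate 1 or 3 it was -0.45 or -0.49.

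CCL20 attracts dendritic cells and lymphocytes that carry CCR6. Its single probe set read 7.78, 9.12 and 7.94 with DMSO and 7.27, 8.56 and 7.98 with T0901317. Replicate 2 was the highest in both groups, and the groups overlapped. The paired differences were -0.51, -0.56 and 0.04 (mean -0.34 ± 0.33, SD, n = 3 pairs; 1.27-fold lower). The mean was -0.53 without replicate 3, -0.26 without replicate 1 and -0.24 without replicate 2.

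CXCL8, the main neutrophil chemoattractant among the 6, moved in opposite directions in different pairs. Probe set MmugDNA.19508.1.S1_at read 12.9, 14.1 and 13.0 with DMSO and 12.6, 13.9 and 13.5 with T0901317. Its paired differences were -0.32, -0.23 and 0.49 (mean -0.02 ± 0.44, SD, n = 3 pairs). The mean was -0.27 without replicate 3 and 0.13 without replicate 1, so its sign rested on which replicates were included. Its levels, like those of CCL2, lie near the upper end of the scale, whose highest value in the file was 14.7, and whether the probes still respond there was not tested.

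CCL2, which draws monocytes through CCR2, had almost the same reading on every array. Probe set MmuSTS.3317.1.S1_at read 13.7, 13.8 and 13.9 with DMSO and 13.7, 13.8 and 13.7 with T0901317. The same limit of the upper end of the scale applies here. The paired differences were -0.02, 0.01 and -0.15 (mean -0.05 ± 0.08, SD, n = 3 pairs).

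CCL5, which attracts T cells and monocytes, was high in replicate 3 whatever the treatment. Probe set MmugDNA.43376.1.S1_s_at, whose _s_ suffix marks probes shared by more than 1 transcript, read 9.0, 9.10 and 9.96 with DMSO and 8.90, 9.05 and 10.1 with T0901317. Its paired differences were -0.10, -0.04 and 0.14. Their mean was -9.7e-05, with an SD of 0.13 over 3 pairs, and 0.05 without replicate 1. The dimmer CCL5 probe set read 8.19, 8.29 and 9.48 with DMSO and 8.10, 8.11 and 9.34 with T0901317. Its paired differences were all below 0 and small, at -0.09, -0.18 and -0.15 (mean -0.14 ± 0.04, SD, n = 3 pairs).

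**Figure D1:**
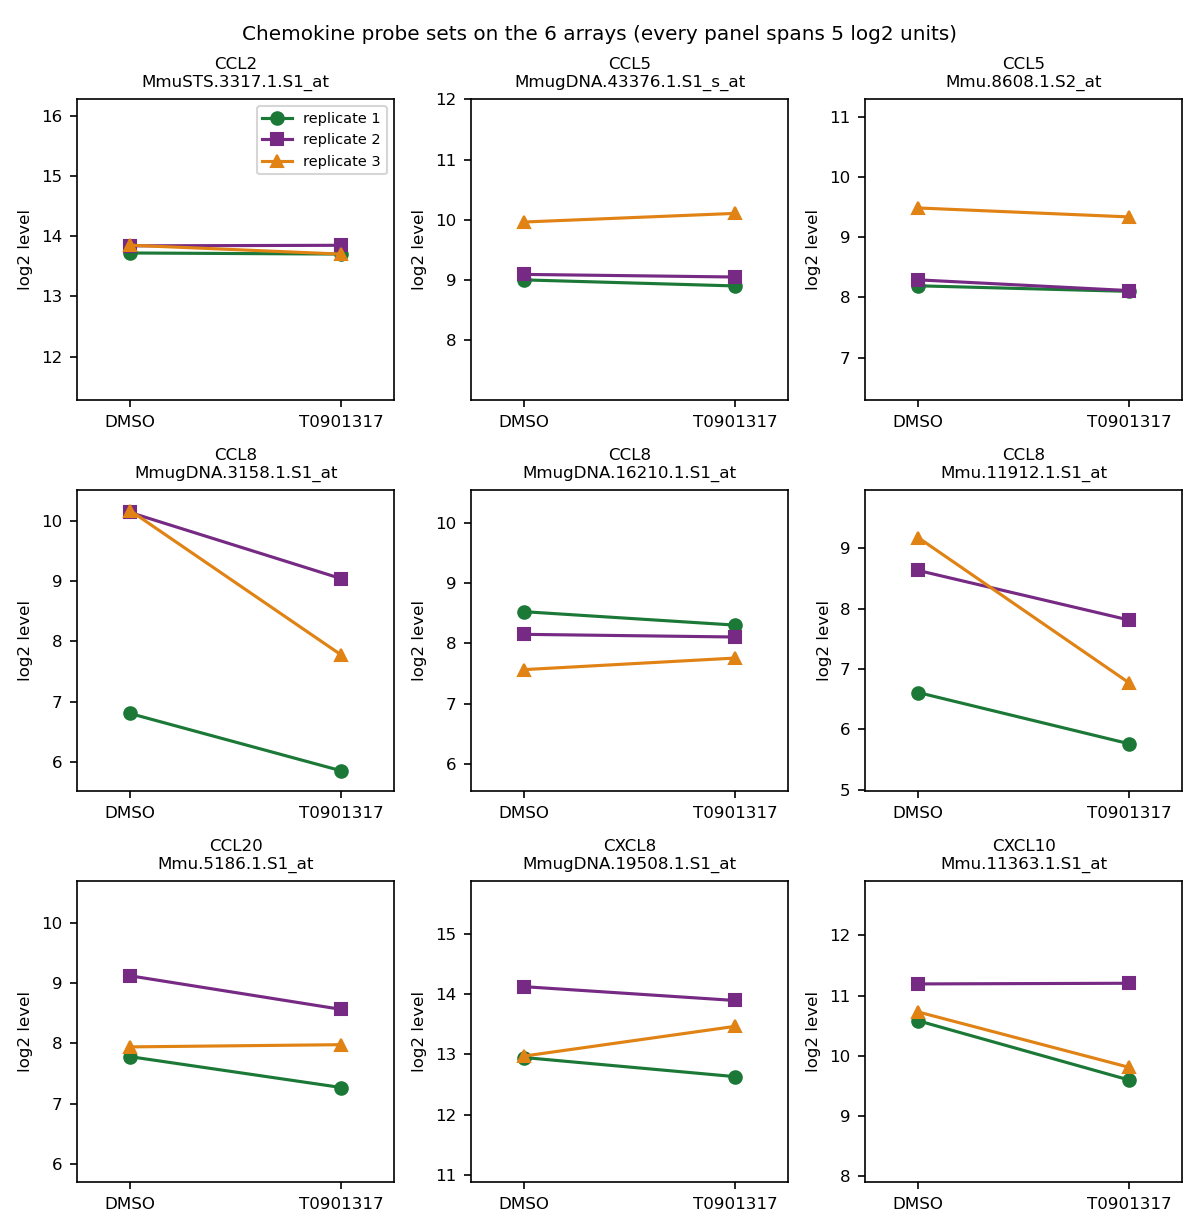
Log2 levels (vertical axes, each spanning 5 log2 units) of the 9 chemokine probe sets with DMSO and T0901317 (horizontal axes); each line joins the 2 arrays of a replicate. The lines of CCL8 slope down on its 2 concordant probe sets and are nearly flat on MmugDNA.16210.1.S1_at, while those of CCL2 are flat and lie together.

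All 9 probe sets had a mean change below 0, where 48.6% of all probe sets did; for 1 of CCL5's the mean was -9.7e-05. The 2 CCL8 probe sets described first and the dimmer one of CCL5, or 3 of 9, were lower in all 3 pairs, as were 11.1% of all probe sets. In 0 of 9 did every treated array lie below every vehicle array, which held for 1.07% of all probe sets. In limma's fit over all probe sets, 1 of the 9, MmugDNA.3158.1.S1_at of CCL8, had an adjusted p under 0.05, as had 0.0853% of all probe sets, or 0.0246% counting only those that were lower. These counts come from the contrast with which the members were chosen and describe it without supporting it. With 3 pairs, the adjusted p of CCL8 also leans on the variance that limma shares across probe sets. In a mixed culture, fewer cells of a type and less RNA per cell cannot be told apart.

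**Figure D2:**
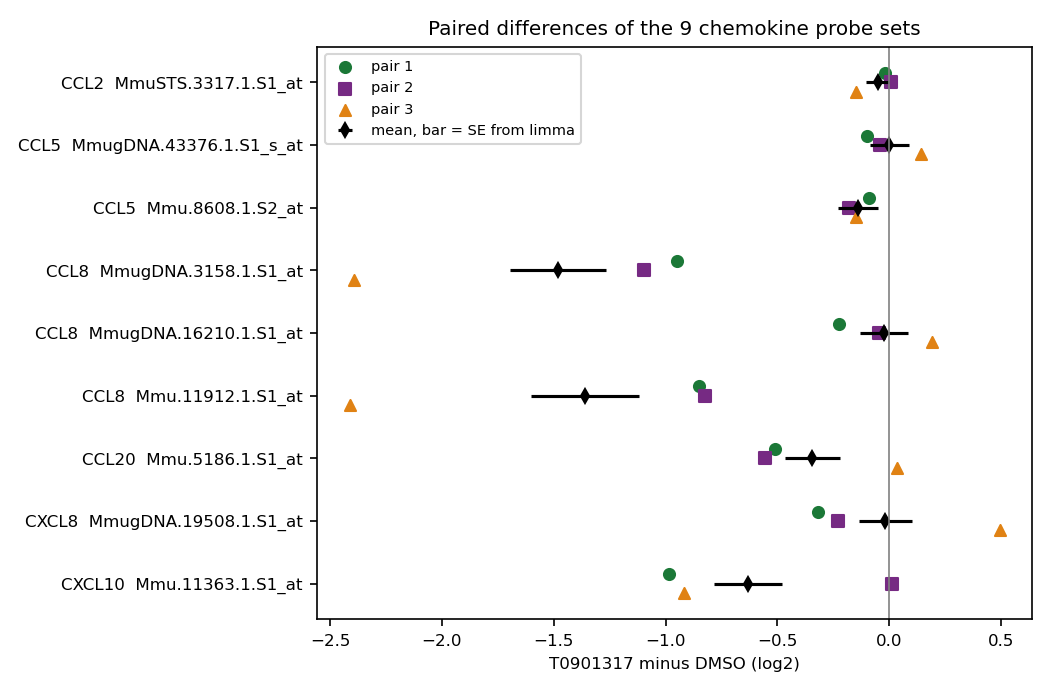
T0901317 minus DMSO differences in log2 units (horizontal axis) of the 9 chemokine probe sets (vertical axis); coloured symbols are the 3 pairs, and black diamonds with bars are the mean and its SE from limma. Pair 3 stands lowest on the 2 concordant CCL8 probe sets, at -2.39 and -2.41, and highest for CXCL8, at 0.49.

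The replicates differed in their chemokine levels. The range of the 3 replicate means, each over the 2 arrays of a number, was 3.26 for CCL8 on MmugDNA.3158.1.S1_at, where replicates 1, 2 and 3 averaged 6.33, 9.59 and 8.97. Its median over all probe sets was 0.40. The difference between replicates is a contrast that played no part in choosing the members, and it was tested with limma's moderated F test, with treatment in the model. Of the 9 probe sets 8 passed, against a background of 40.2% of all probe sets. With only probe sets above the dim reference in the fit, as all 9 are, 8 passed against 49.5%.

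CCL8 passed on all 3 probe sets, with limma adjusted p of 6.4e-06, 4.4e-04 and 0.0026 on MmugDNA.3158.1.S1_at, the probe set concordant with it and MmugDNA.16210.1.S1_at. On the concordant probe set the range was 2.04, with replicate 1 lowest, and on MmugDNA.16210.1.S1_at it was 0.75, with replicate 1 highest. CCL5 passed on both probe sets (limma adjusted p = 2.5e-05 and 7.8e-06), with replicate 3 above the others by about the whole range of 1.08 and 1.26. CCL20, CXCL8 and CXCL10 passed with ranges of 1.32, 1.22 and 1.11 (limma adjusted p = 1.3e-04, 1.7e-04 and 0.0014). In these 3 genes replicate 2 was the highest and replicate 1 the lowest. CCL2 did not pass (range 0.13; limma adjusted p = 0.24). The replicate numbers carry animal, culture and any day of processing together, which cannot be told apart. RNA quality differed with them as well, most in replicate 3, and the test between replicates was not run with it in the fit.

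**Figure D3:**
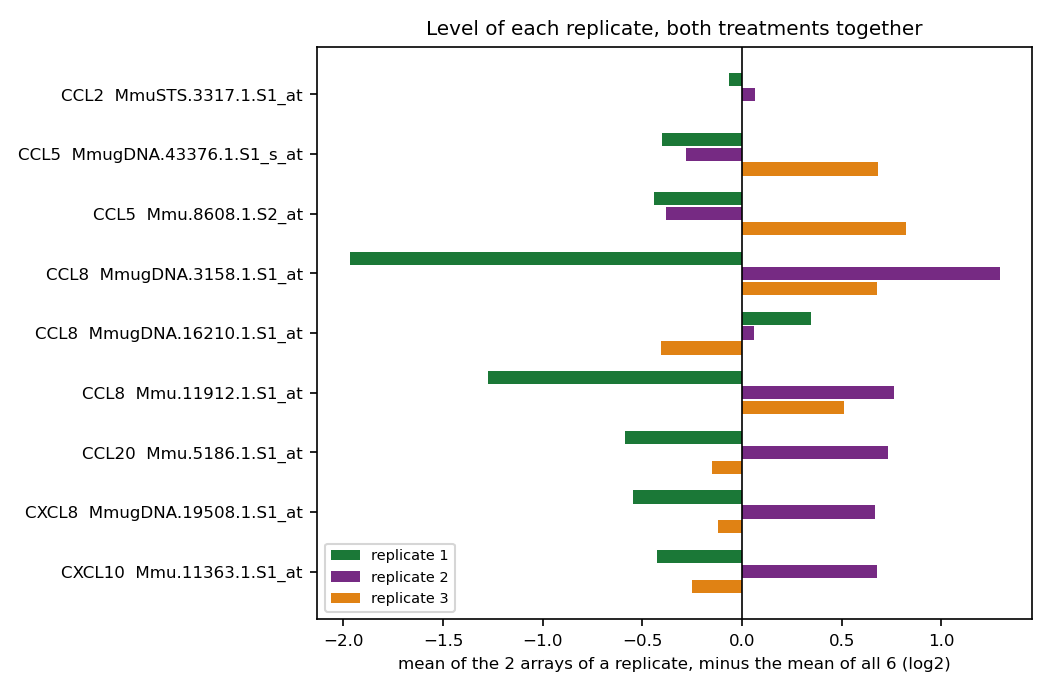
Mean log2 level of the 2 arrays of each replicate, relative to the mean of all 6 arrays (horizontal axis), for the 9 chemokine probe sets (vertical axis); bars are replicates 1, 2 and 3. Replicate 1 lies below the mean on 8 of the 9 probe sets, the exception being MmugDNA.16210.1.S1_at of CCL8, and replicate 3 stands out for CCL5.

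Cell type markers also differed between replicates. In limma's test between replicates, 6 of 6 measured fibroblast and pericyte markers, 4 of 5 luteal steroid-producing and 4 of 7 endothelial ones passed. So did 4 of 5 of T and NK cells and 2 of 7 of neutrophils and platelets. Of 14 listed macrophage and monocyte markers 12 were measured, all above the reference for dim signal, and 10 passed the same test between replicates, against 46.2% of named genes. For replicates 1, 2 and 3 their mean level was 7.46, 8.37 and 8.48 with DMSO and 7.38, 8.37 and 8.52 with T0901317. Replicate 1 was thus the lowest for these markers, as it was for CCL8 on its 2 concordant probe sets. Within pairs the marker mean differed by -0.08, -0.01 and 0.04, and 0 of the 12 passed for treatment in limma (2 at an unadjusted p under 0.05). Single markers went both ways. TYROBP (mean change -0.29) and CSF1R (-0.25) were lower in each pair, and AIF1 (0.14), MARCO (0.06) and ITGAM (0.09) were higher in each.

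Markers of T and NK cells, of which 5 of 10 were measured and CD3D, CD3E and CD3G were not analysed here, averaged 7.96, 8.01 and 8.88 in the vehicle arrays. With T0901317 they averaged 7.78, 7.87 and 8.76. As with CCL5, replicate 3 was the highest in both groups. Single markers differed. CD7, whose mean was below the dim reference, was lowest in replicate 3 in both groups. GZMB was nearly level between replicates 1 and 3, at 11.4 and 11.5 with DMSO and 11.2 and 11.3 with T0901317. Markers of neutrophils and platelets (7 of 7 measured, 6 above the dim reference) averaged 5.54, 5.66 and 6.10 with DMSO and 5.38, 5.66 and 5.87 with T0901317. Endothelial markers (7 of 8 measured) ran from 6.57 to 7.03 with DMSO and 6.75 to 7.16 with T0901317, and their mean was higher with T0901317 in each pair, by 0.14, 0.13 and 0.24. Those of fibroblasts and pericytes (6 of 10) ran from 8.61 to 9.83 and 8.51 to 9.72, with paired differences of -0.22, -0.12 and -0.10. The paired differences were -0.17, -0.14 and -0.12 for T and NK cells and -0.16, -0.01 and -0.24 for neutrophils and platelets. Of the genes in these lists, 0 passed for treatment in limma, and the part of any cell type in the chemokine values was not tested.

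RNA quality moved with replicate 3. The mean 3' minus 5' difference of the actin, GAPDH and EF1a controls, which grows as RNA is degraded, was 1.89 in its vehicle array and 1.30 in its treated array, and 0.69 to 1.00 in the other 4. The T0901317 minus DMSO difference of this measure was 0.16, -0.08 and -0.59 in pairs 1, 2 and 3. When it entered the fit beside the replicate block, the change of CCL8 was -1.15 and -0.99 on its 2 concordant probe sets, that of CXCL10 -0.60 and that of CCL20 -0.48. That of CXCL8 was -0.21, against -0.02 without the covariate, and that of the discordant CCL8 probe set -0.11, against -0.02. The CCL5 probe sets were at -0.06 and -0.13 and CCL2 at -0.02.

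Other genes of the chemokine system were examined as a list of 90 genes in 4 groups that leaves out the 6 members. Of these, 67 were measured under their names. In limma's test over all probe sets 0 rose, 0 fell and 67 did not pass, while 0.177% of all named genes passed. At an unadjusted p under 0.05 there were 10 of the 67, against 3.73% of all named genes. The list's median change was -0.03, against -0.02 for all named genes, and 41 of 67 lay below 0, as did 58.6% of named genes. Without replicate 3, CCL18 and PPBP passed, both lower. In that fit of 4 arrays 0.622% of all probe sets passed, against 0.0853% in the main fit.

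Among the 28 other ligands measured, the median was -0.07 and 21 lay below 0. The largest difference was that of PPBP, a platelet chemokine, at -0.49 ± 0.16 (limma's SE, n = 3 pairs; limma adjusted p = 1.00). Its paired differences were -0.73, -0.75 and -7.3e-04, and its mean over the arrays was below the reference for dim signal. CCL18, a chemokine of alternatively activated macrophages, was at -0.48 ± 0.08 (limma adjusted p = 0.077), with paired differences of -0.41, -0.34 and -0.69. A second CCL18 probe set had -0.34 ± 0.08 (limma adjusted p = 0.56). CCL23 was at -0.34 ± 0.15, with -0.72, 0.05 and -0.36 in the pairs, and was also dim. CCL4, CCL7, CXCL1, CXCL2, CXCL3 and CXCL5 were not analysed here under their own names.

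Of the 13 receptors measured, 9 lay above 0, with a median of 0.10. CXCR4, the receptor of CXCL12, had the largest value, 0.42 ± 0.11 (limma's SE; limma adjusted p = 0.68), with 0.22, 0.27 and 0.76 in the pairs. CCR3 and CCR6, receptors of CCL5 and CCL20 among others, were at 0.25 ± 0.15 and 0.14 ± 0.12. CCR3 had 0.13, -0.05 and 0.66 in the pairs, and a mean of 0.04 without replicate 3. CCR2, the receptor of CCL2, read between 3.66 and 3.90 on all 6 arrays, below the dim reference. CXCR1 and CXCR2 were not analysed here.

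Of 6 atypical receptors and regulators of chemokine availability measured, 3 lay below 0. ACKR3, a scavenger of CXCL12, was at 0.38 ± 0.11 and positive in 3 of 3 pairs (limma adjusted p = 0.98). CCRL2 and TNFAIP6 were both at -0.18. Of 20 upstream regulators, 13 lay below 0, with a median of -0.06 and values from -0.17 to 0.16 on each gene's brightest probe set. Dimmer probe sets went beyond that span for IRF7, an interferon regulatory factor, at -0.41 ± 0.11 (limma's SE; -0.58, -0.19 and -0.46 in the pairs; limma adjusted p = 0.69), and for NFKBIZ, a nuclear regulator of NF-kB, at 0.25 ± 0.18 (-0.16, -0.03 and 0.94). The brightest probe sets of these genes were at -0.06 and -0.10. TNFAIP3, an inhibitor of NF-kB signalling, was at -0.17 ± 0.06 on its brightest probe set and between -0.08 and 0.08 on its other 4. BCL3, a nuclear cofactor of NF-kB, was at 0.16 ± 0.10, with -0.03 on its other probe set. IRF8, a factor of the myeloid lineage, was at 0.16 ± 0.10. IRF9 and RELA were not analysed here.

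**Figure D4:**
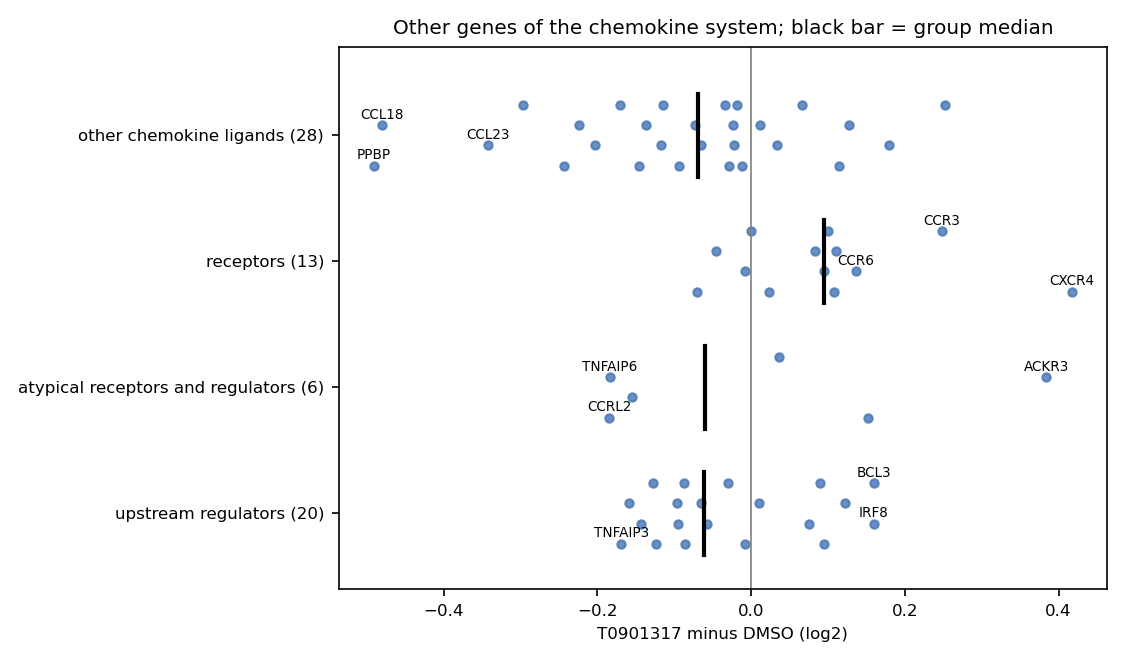
T0901317 minus DMSO differences in log2 units (horizontal axis) of 67 other genes of the chemokine system in 4 groups (vertical axis, with how many were measured); each point is a gene, staggered vertically for legibility, and black bars are group medians. The values span -0.49 to 0.42, and the named points are the 3 of largest size in each group.

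Genes that lie beside the members in the genome were compared with them, using the gene order of the supplied RefSeq table for rhesus macaque (assembly T2T-MMU8v2.0). They were picked by position and for being chemokines, after their values had been seen, and measured neighbours of other kinds are not given here. CCL8 lies between CCL11 and CCL13, followed by CCL1, in a cluster that begins with CCL2 and CCL7. CCL11, CCL13 and CCL1 had changes of -0.17 ± 0.13, -0.03 ± 0.13 and 0.18 ± 0.13 (limma's SE, n = 3 pairs). CCL8 was at -1.48 ± 0.21 on MmugDNA.3158.1.S1_at, where the SD of the pairs was 0.79. It was at -1.36 ± 0.24 on the concordant probe set and -0.02 ± 0.11 on the discordant one, the latter within the span of these neighbours. CCL13 was below the dim reference. The value of CCL1 came from pair 3 (-0.02, 0.01 and 0.56 in the pairs), and its other probe set was at -0.02. CXCL10 lies between CXCL11 and CXCL9, which share its receptor CXCR3. CXCL11 was at -0.11 ± 0.10 on its brighter probe set and -0.33 ± 0.15 on the other, and CXCL9 at -0.01 ± 0.13. CXCL6, a neighbour of CXCL8, was at -0.02 ± 0.11. None of these 6 neighbours passed limma's threshold, and differences between neighbours were not tested.

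To find genes with a pattern like that of CCL8, each probe set was centred on its own mean, and the root mean square difference from MmugDNA.3158.1.S1_at over the 6 arrays was ranked for 11385 named genes above the dim reference. The nearest was CCL18 (difference 0.59 log2 units; Pearson's r 0.95 over the 6 arrays), followed by MS4A4A (0.62), MS4A7 (0.72), CD36 (0.75) and GPR84 (0.83). CCL8 itself deviated from its mean by 1.63, so even the nearest genes matched it only in part. MS4A4A and MS4A7 are membrane proteins of macrophages, CD36 is a scavenger receptor for oxidised lipoproteins, and GPR84 is a receptor of medium-chain fatty acids on myeloid cells. The arrays share replicates and the ranking used both treatments, so it is a description.

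All 5 genes were lowest in replicate 1 and lower with T0901317 in each pair, as CCL8 was. MS4A4A read 3.74, 5.78 and 6.37 with DMSO and 3.15, 4.98 and 4.88 with T0901317, and its paired differences of -0.59, -0.80 and -1.48 were farthest from 0 in pair 3, as were those of CCL8 and CCL18. Its mean was above the dim reference with DMSO (5.30) and below it with T0901317 (4.34), and both arrays of replicate 1 were below it, so these differences run into dim signal. CD36 differed most in pair 2, at -1.07, and least in pair 3, at -0.42. The mean changes were -0.96 for MS4A4A, -0.79 for CD36, -0.48 for CCL18, -0.36 for MS4A7 and -0.23 for GPR84. None of the 5 passed limma's threshold over all probe sets (adjusted p = 0.092, 0.10, 0.077, 0.99 and 1.00).

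**Figure D5:**
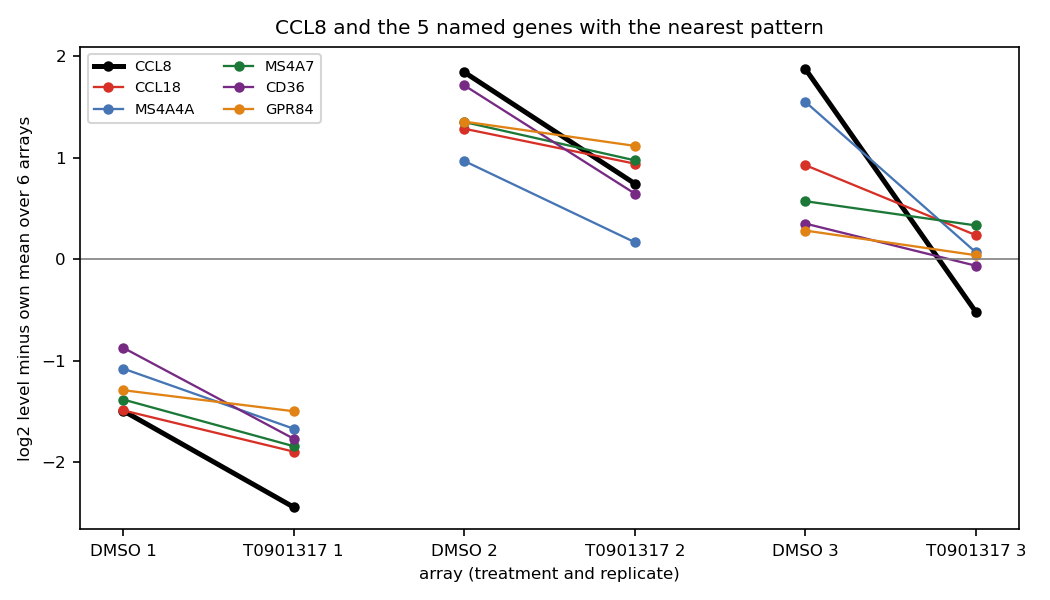
Log2 level minus each gene's own mean over 6 arrays (vertical axis) for CCL8 and its 5 nearest named genes; arrays are ordered by replicate (horizontal axis), and lines join the 2 arrays of a pair. Every gene is below its mean in replicate 1 and lower with T0901317 than with DMSO within each pair, and CCL8 has the steepest line in each pair (-0.95, -1.10 and -2.39).

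The other members had other neighbours in pattern. CCL20 was nearest to THEMIS2, PLEK2 and TNFRSF1B (differences of 0.14 to 0.16 log2 units, against 0.59 for its own deviation), and the last of these is a receptor of tumour necrosis factor. CXCL8 was nearest to TMEM176B, ATP13A3 and BTG2 (0.11 to 0.13, against 0.54). CXCL10 was nearest to TNFAIP8, DNER and CDKN3 (0.25 to 0.26, against 0.62). CCL5, on its brighter probe set, was nearest to PDIA6, MBP and SSR3 (0.036 to 0.073, against 0.49), of which PDIA6 and SSR3 encode proteins of the endoplasmic reticulum. CCL2, which hardly varied, was nearest to NAGS, BTBD2 and COPRS (0.019 to 0.026, against 0.069). No member was among the nearest genes of another member.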

How the data were processed

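The deposited table holds log2 levels for 52865 probe sets on 6 arrays, made by the authors with RMA per the submitters' processing notes. The sources used here do not give its version or say whether all arrays were normalized together. The 99 control probe sets were left out of the tests. Symbols came from the platform annotation and were updated by gene number through the RefSeq gene table, which held 24616 of 24956 numbers and changed 0 symbols; 1 listed gene was matched through a synonym.

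Treatment was tested with limma 3.58.1 in R 4.3.3 (lmFit, eBayes with a variance trend), with the replicate number as a block, two-sided, and Benjamini-Hochberg adjusted over all probe sets at a threshold of 0.05. With 3 pairs, exact sign flips allow no two-sided p below 0.25. The difference between replicates was limma's moderated F test of the replicate terms. The pairing comes from the series' design text; deviations from group means correlated at 0.66, 0.81 and 0.83 within numbers. A gene other than a member was read by its probe set of highest mean. The members and lists were chosen with earlier results of these data known. Named genes were all members, any listed gene past the threshold, the 3 of largest change per group of the list, and the 5 (CCL8) or 3 nearest genes in pattern; genes named as neighbours, receptors, regulators' other probe sets or markers were added after their values were seen. The fits were checked on simulated data. Alternatives were the fit without the block, each replicate left out, quantile, cyclic loess and median scaling, a filter on dim probe sets, no variance trend, the 3' minus 5' covariate, and genes as means of their probe sets. The number of arrays limits the precision. Whether replicates are separate animals is not stated, so p-values measure the spread between these samples.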

Additional observations from a re-analysis of the deposited data

How the results depend on the processing

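Among the other genes of the chemokine system, the count past the threshold was 0 under quantile, cyclic loess and median scaling, the filter on dim probe sets, no variance trend and the fit without the replicate block. It was 1 with the 3' minus 5' covariate and 1 with genes as means of their probe sets, CCL18 in both, and ran from 0 to 2 when 1 replicate was left out. Without the replicate block 0 of the 67 had an unadjusted p under 0.05. The change of CCL5 on its dimmer probe set was -0.093 under quantile scaling. The other alternatives moved the members' changes by less than the SD of their pairs. Leaving out 1 of 3 pairs or dropping the block cannot move a mean by that much. The comparison therefore had content only for the scalings and the covariate. For CXCL8 the change still ran from -0.27 to 0.13 when a replicate was left out. The members' changes were not examined under the filter on dim probe sets, no variance trend or genes as means. Of the 8 alternatives that were, the limma adjusted p was under 0.05 in 5 for CCL8 on MmugDNA.3158.1.S1_at and in 4 on the concordant probe set. MmugDNA.3158.1.S1_at did not pass under quantile or cyclic loess scaling or without the block. The adjusted p was under 0.05 in 2 each for CCL20 and CXCL10, 1 for CXCL8 and 0 for the other members' probe sets. Under median scaling only the 2 concordant CCL8 probe sets passed. Every other pass came with a replicate left out or with the covariate added. Such fits hold little information on a probe set's own variance, and their p-values lean on the variance limma shares across probe sets. The main fit, with 3 pairs, leans on it too. For CCL8 on MmugDNA.3158.1.S1_at limma's SE was 0.21, where the SD of the 3 pairs was 0.79. The counts therefore do not measure how firm a change is, and they describe the contrast that chose the members. Of the 9 member probe sets, 6 to 9 passed between replicates under the alternatives: 6 without replicate 3 or 2 (17.1% and 28.6% of all probe sets), 7 without replicate 1 (41.3%), 9 under cyclic loess scaling (31.4%) and 8 under the others (33% to 49.5%). Over all probe sets the count past the threshold for treatment, 45, was 0 without the block, 27 under quantile and cyclic loess scaling, 11 with no variance trend, 206 with the covariate and 328 without replicate 3. The causes of these differences were not tested.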
